A study of Mus musculus with 12 samples.

Results

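Meis1, Meis2, Meis3, Pbx2 and Pbx3 encode homeodomain transcription factors that bind DNA together with Hox proteins, and their mRNAs were followed through the neuronal differentiation of P19 cells. The members were the 5 genes of this name chosen among 14042 genes with at least 1 kept read. The annotation (mm10, GENCODE vM21) places Meis1 (ENSMUSG00000020160.18) on the minus strand at chr11:18879817-19018985, Meis2 (ENSMUSG00000027210.20) on the minus strand at chr2:115863064-116065839, Meis3 (ENSMUSG00000041420.18) on the plus strand at chr7:16175090-16186504, Pbx2 (ENSMUSG00000034673.14) on the plus strand at chr17:34591266-34597400 and Pbx3 (ENSMUSG00000038718.15) on the minus strand at chr2:34171457-34373142. They held 1447 of 4274320 kept reads (0.0339%), and all 5 passed the filter of 30 reads over the libraries that 9309 genes passed. P19 is a wild-type mouse embryonal carcinoma line, used here before differentiation (D0) and after 2, 4 and 6 days (D2, D4 and D6) in NDiff 227 medium with 500 nM retinoic acid. D0 cells grew in serum-containing medium without retinoic acid, so that time, medium and retinoic acid cannot be told apart. Each day had 3 biological replicates, which gave 12 libraries of native poly(A) RNA sequenced on nanopores, where 1 read is 1 RNA molecule and also carries its poly(A) tail.

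Meis and Pbx proteins belong to the TALE class, named for a 3 amino acid loop extension of the homeodomain. Meis proteins bind Pbx proteins directly, which retains Pbx in the nucleus, and both join Hox proteins on shared DNA sites, where they sharpen the choice of site. In the embryo they act with Hox proteins in hindbrain and spinal cord patterning, and Meis genes are long known as targets of retinoic acid, including in P19 cells.

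Kept reads ranged from 120326 to 613756 per library, and D2 was the shallowest day. The 13 sequencing runs each held 1 day, so that day and run cannot be told apart. The 3 runs of D0 have D2 in their names as well, and 2 of the 4 runs of D6 give no day in theirs. Pou5f1, which encodes a pluripotency factor, had 664, 1027 and 782 reads in the D0 libraries and at most 3 in any later library, which sets D0 apart and does not order the later days. At D6 against D0, all 3 tested pluripotency genes (of 6 listed) were lower, and all 6 neuronal genes and all 4 neural progenitor genes were higher. Over all genes, 19% were called higher and 18.7% lower in that comparison. At D2, 2 of the 6 neuronal genes were lower than at D0 and none was higher, while 3 of the 4 neural progenitor genes were higher. Of all genes, 4.69% were called higher and 6.16% lower at D2. Of 3 listed neural crest genes 1 was tested (Foxd3), lower than at D0 at D2 and D4 and not called at D6. It was higher at D6 than at D2 by 2.53 ± 0.68 (SE, log2, adjusted p = 0.0053, limma-voom). This list already summed to 25.8 to 31.8 CPM in the D0 libraries, so that this 1 gene does not tell whether neural crest cells were present. No endoderm, mesoderm or glial marker had enough reads to be tested, and the sum of each of these lists stayed at or below 12.15 CPM (the usual unit of read counts scaled for library size) in every library. In such bulk samples, fewer cells that express a gene and less RNA per cell cannot be told apart.

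Bases at the 3′ ends of these mRNAs are shown because poly(A) tails, and so the reads themselves, begin there. Reads of Meis1, Meis3 and Pbx3 ended at 1 main place each, Meis2 reads at a main and a minor place, and Pbx2 reads at several. The windows printed hold the poly(A) signal, the hexamer that directs cleavage, in capitals, and were read from GENCODE vM21 transcripts (GRCm38, the assembly also called mm10) on the strand of the gene. All lie in the annotated 3′ UTR, in the last exon.

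Meis1, minus strand, chr11:18880675-18880704: acattgtaAATAAAttttgtgcaaaaagga
Meis2 minor end, minus strand, chr2:115863140-115863169: aaatttacATTAAAatacttgtatgaggac
Meis3, plus strand, chr7:16186475-16186504: tttttaatAATAAAgtctttaaaatgcaaa
Pbx2 earlier end, plus strand, chr17:34596639-34596668: gtgtcttaAATAAAcatgctgatttatttt
Pbx2 last end, plus strand, chr17:34597368-34597397: cagttttaAATAAAgatatttctttttccc
Pbx3, minus strand, chr2:34171464-34171493: caaacatgAATAAActttgctttcctgatt

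The main places held 91.1% of Meis1 reads, 92.4% of Meis2 reads, 96.4% of Meis3 reads and 98.2% of Pbx3 reads within 30 bases. AATAAA and, where it was missing, ATTAAA were searched from 50 bases before to 10 bases past each place on the transcript strand. Of 12154 transcripts searched in the same way, 70.7% held AATAAA and 86.4% held either hexamer, against 2.01% and 3.89% in windows of the same length 500 bases upstream.

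All 5 genes had a higher CPM at D6 than at D0, but their courses differed. Meis1 was highest at D2, Meis2 was high from D2 on, Meis3 and Pbx2 rose by smaller folds, and Pbx3 gained most of its reads between D4 and D6. In the limma-voom fit over all 9309 genes, with p-values adjusted by Benjamini-Hochberg and called at 0.05, 3 of the 5 genes were higher at D2 than at D0, and 5 of 5 at D4 and at D6. Over all genes, 4.69% were called higher and 6.16% lower at D2, 12.9% higher at D4 and 19% higher at D6 (37.7% in either direction). None of the 5 was lower in any of these 3 comparisons, which share the D0 libraries. Where libraries of 2 days are said below not to overlap, this describes the single gene. The share of all genes that separate in this way is not given here, so it sets no gene apart from the rest. Scaled to the library total instead, the median change of all genes at D6 against D0 was 0.27 (log2) and 69.3% of the called genes were higher, against 50.5% with the scaling used.

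**Figure D1:**
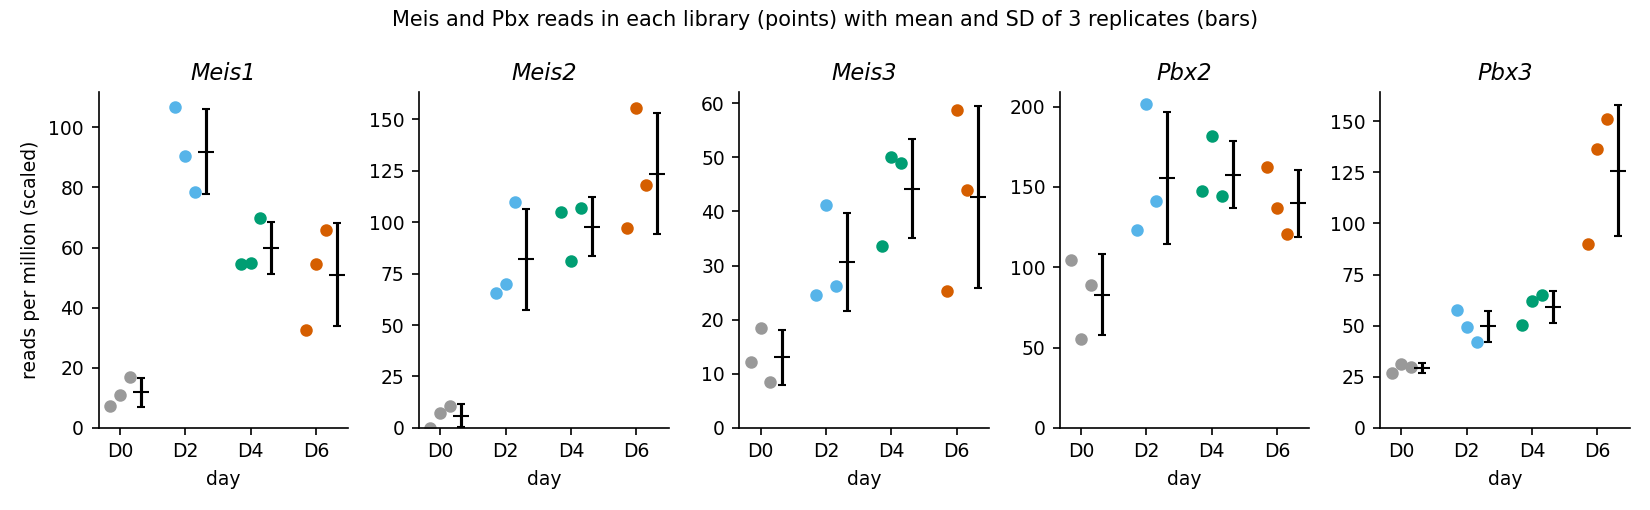
CPM (vertical axes, from 0) of the 5 genes in each of 3 libraries per day (points), with mean and SD. Meis1 is highest at D2, and Pbx3 reaches its highest levels at D6.

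Meis2 was nearly unread at D0 and higher at each later day. It had 0, 4 and 5 reads in the D0 libraries, 8, 17 and 21 at D2, 25, 34 and 46 at D4, and 27, 74 and 43 at D6. Every later library was above every D0 library. Scaled, this was 5.99 ± 5.43 CPM at D0 (SD, n = 3), 81.9 ± 24.4 at D2, 97.8 ± 14.4 at D4 and 124 ± 29.5 at D6. The log2 fold change against D0 was 4.01 ± 0.58 (SE) at D2, 4.23 ± 0.56 at D4 and 4.61 ± 0.56 at D6, with adjusted p (limma-voom) of 3.40e-07, 1.15e-08 and 3.85e-10. With 9 reads in all at D0 the fold is imprecise. Without D0 replicate 1, the library with no Meis2 read, the changes at D2, D4 and D6 were 3.13, 3.31 and 3.72, without D0 replicate 3 they were 4.64, 4.83 and 5.23, and with a mapping quality of at least 10 they were 2.95, 3.44 and 3.88, all still called. For the reads as kept, the pooled reads gave a D6 to D0 ratio of 20.4 with an exact counting interval of 10.5 to 45.6. From D2 on the levels did not differ past the threshold, at a log2 change of 0.61 ± 0.28 from D2 to D6 (adjusted p = 0.12, limma-voom).

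Meis1 rose early and then had lower levels. Its reads were 3, 6 and 8 at D0, 13, 22 and 15 at D2, 13, 23 and 30 at D4, and 9, 26 and 24 at D6. The scaled levels were 11.8 ± 4.88, 91.9 ± 14.2, 59.8 ± 8.68 and 50.99 ± 17.03 CPM (SD, n = 3 each), and the 3 D2 libraries were above all others. Against D0, the log2 fold change was 2.89 ± 0.40 (SE) at D2, 2.31 ± 0.39 at D4 and 2.08 ± 0.40 at D6, with adjusted p (limma-voom) of 1.19e-07, 4.12e-06 and 2.37e-05. With a mapping quality of at least 10, which 22.9% of Meis1 reads had, the changes were larger, at 4.64, 4.27 and 2.68, so that the order of the Meis1 and Meis2 folds at D2 and D4 depended on this minimum. From D2 to D6, a comparison added after the data were seen, it fell by 0.82 ± 0.29 on the log2 scale (adjusted p = 0.038, limma-voom, where 8.36% of all genes were called lower). It was -1.96 with a mapping quality of at least 10. The call at the main setting was lost under 7 of 12 other settings, at adjusted p of 0.055 to 0.16, and also without D2 replicate 1 (0.11), D2 replicate 2 (0.087), D6 replicate 1 (0.12) or D6 replicate 2 (0.065). D4 did not differ from D2 past the threshold, at -0.58 ± 0.28 (adjusted p = 0.29).

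Meis3 was the Meis gene with the fewest reads. Its counts were 5, 10 and 4 at D0, 3, 10 and 5 at D2, 8, 21 and 21 at D4, and 7, 28 and 16 at D6. In CPM this was 13.01 ± 5.02, 30.7 ± 9.13, 44.2 ± 9.18 and 42.7 ± 16.9 (SD, n = 3 each), and no later library overlapped the D0 libraries. Meis3 was higher than at D0 by 1.77 ± 0.40 (SE) on the log2 scale at D4 and by 1.70 ± 0.40 at D6, with adjusted p (limma-voom) of 0.000407 and 0.000471. With reads of mapping quality of at least 10 alone, the D4 change was 1.52 (adjusted p = 0.055). At D2 the change was 1.32 ± 0.48, which missed the threshold (adjusted p = 0.063) but passed it under 6 of the 24 alternatives run, among them without D6 replicate 1 or without D6 replicate 2 (0.047 and 0.045). D2, D4 and D6 did not differ from each other past the threshold.

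Pbx2 and Pbx3 encode partners of the Meis proteins, and both were already read in every D0 library. Pbx2 had 43, 30 and 42 reads at D0, 15, 49 and 27 at D2, 35, 76 and 62 at D4, and 45, 65 and 44 at D6. This gave 82.9 ± 25.2, 155 ± 41.1, 158 ± 20.7 and 140 ± 20.8 CPM (SD, n = 3 each), with D2, D4 and D6 overlapping each other and none of them overlapping D0. The log2 fold change against D0 was 1.03 ± 0.23 (SE) at D2, 1.01 ± 0.20 at D4 and 0.81 ± 0.21 at D6, with adjusted p (limma-voom) of 0.00109, 7.99e-05 and 0.00122. The D2 call was lost without D2 replicate 2 (0.85, adjusted p = 0.054), and the D6 call without D0 replicate 2, where the change was 0.53 with an adjusted p of 0.055.

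Pbx3 rose late. It had 11, 17 and 14 reads at D0, 7, 12 and 8 at D2, 12, 26 and 28 at D4, and 25, 65 and 55 at D6. The levels were 29.2 ± 2.32, 49.6 ± 7.81, 59.2 ± 7.75 and 126 ± 31.9 CPM (SD, n = 3 each), and the 3 D6 libraries were above all others. The change at D2 was 0.74 ± 0.35 (SE) on the log2 scale and did not pass the threshold (adjusted p = 0.18, limma-voom), although the D2 and D0 libraries did not overlap. At D4 it was 1.02 ± 0.29 and at D6 it was 2.07 ± 0.26, with adjusted p of 0.00574 and 1.53e-09. Pbx3 was the only one of the 5 genes called between D4 and D6, higher by 1.05 ± 0.23 (adjusted p = 0.000975), in a comparison where 4.13% of all genes were called higher and 4.34% lower (8.46% in either direction). From D2 to D6 it rose by 1.33 ± 0.30 (adjusted p = 0.000844), where 9.18% of all genes were called higher and 17.5% in either direction. None of the 5 genes was called between D2 and D4, where 2.03% of all genes were called higher and 1.07% lower (3.10% in either direction), and 1 of the 5, Meis1, had an unadjusted p below 0.05 (limma-voom; limma-trend also called none).

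The balance between paralogs was read from the same libraries as a share, which does not depend on scaling. The shares were chosen after the read counts were seen, and 3 against 3 libraries cannot give a p below 0.10 in a two-sided exact permutation test. Meis2 made up 38.1%, 43.6% and 58.3% of the Meis1 and Meis2 reads of the D2 libraries, 65.8%, 59.6% and 60.5% at D4, and 75%, 74% and 64.2% at D6. D6 was above D2 by 24.4 percentage points, from 46.7 ± 10.5% to 71.1 ± 5.98% (SD, n = 3), and the libraries of these days did not overlap (exact permutation p = 0.10, 0.20 adjusted over 6 shares tested). With a mapping quality of at least 10, which only 22.9% of Meis1 and 24.7% of Meis2 reads had, the difference was 49.2 percentage points. That value rests on few reads per library. At D0 these 2 genes had only 3, 10 and 13 reads together, and Meis2 held 0%, 40% and 38.5% of them. Pbx3 made up 31.8%, 19.7% and 22.9% of the Pbx2 and Pbx3 reads at D2 and 35.7%, 50% and 55.6% at D6. The difference was 22.3 percentage points, again without overlap (exact permutation p = 0.10, 0.20 adjusted). Against D0, with 20.4%, 36.2% and 25%, the D6 libraries overlapped (exact permutation p = 0.20).

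**Figure D2:**
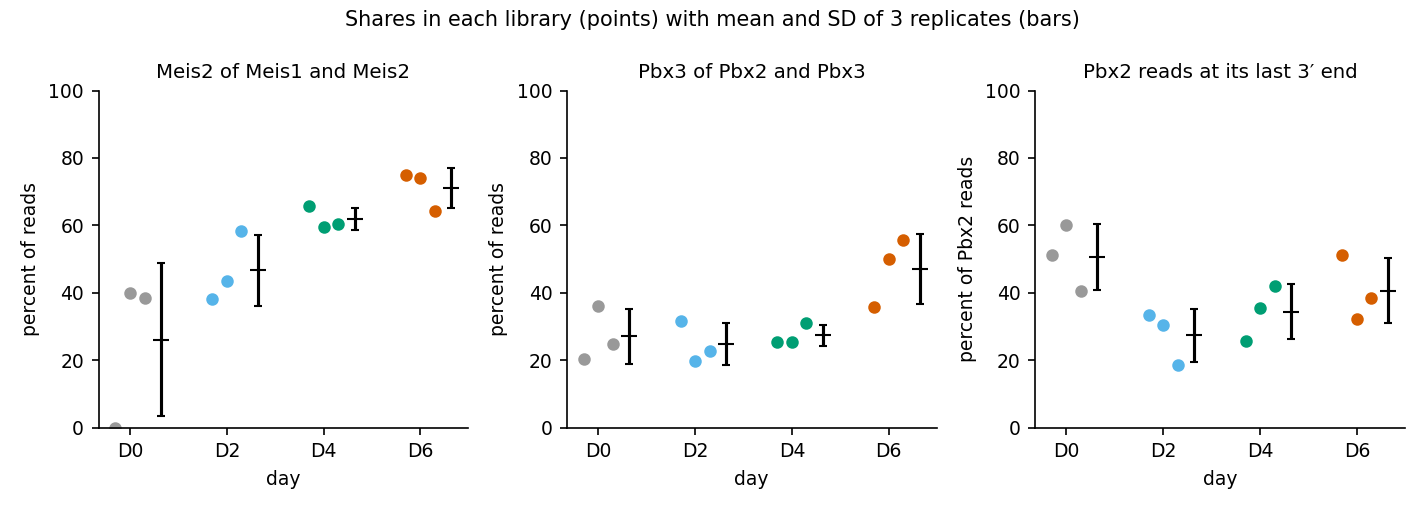
Percent of reads (vertical axes, 0 to 100) in each of 3 libraries per day (points), with mean and SD, for Meis2 among Meis1 and Meis2 reads, Pbx3 among Pbx2 and Pbx3 reads, and Pbx2 reads at the last 3′ end. The Meis2 and Pbx3 shares are higher in every D6 than in every D2 library, and the last-end share is lower in every D2 than in every D0 library.

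Other TALE genes moved in both directions. Of 13 listed genes 10 were tested, of which 6 had risen and 1 had fallen by D6. Irx3 and Irx5, Iroquois genes of neural patterning, had 6 and 2 reads over the D0 libraries and 98 and 69 over the D6 libraries. Irx3 rose by 5.84 ± 0.51 (SE, log2, adjusted p = 2.16e-14, limma-voom) at D2 and was lower at D6 than at D4 by 1.34 ± 0.19 (adjusted p = 5.33e-07). Irx5 at D6 was 44.0 times its D0 level by pooled reads, with an exact counting interval of 11.7 to 371, and its fitted log2 change of 5.04 was 5.92 without D0 replicate 1. Irx1 (2.195 ± 0.64, or 2.79 with any tail tag), Irx2 (2.27 ± 0.62) and Pknox1 (1.83 ± 0.44), whose protein also binds Pbx, were higher at D6. Tgif1, which encodes a repressor of TGF-beta and retinoid targets, was the gene that fell, from 103 ± 18.3 to 32.01 ± 3.46 CPM (SD, n = 3), a log2 change of -1.63 ± 0.27 (SE, adjusted p = 1.33e-06). Tgif2 (0.55 ± 0.29), Pbx4 (0.49 ± 0.44) and Pknox2 (0.45 ± 0.47) did not pass the threshold at D6. Tgif2 passed it when scaled to the library total (0.81, adjusted p = 0.028) and without D6 replicate 1 (0.81, adjusted p = 0.022), and the sign turned for Pbx4 with a mapping quality of at least 10 (-0.20) and for Pknox2 without the D6 runs that name no day (-0.17). The 3 untested genes had at most 10 reads.

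**Figure D3:**
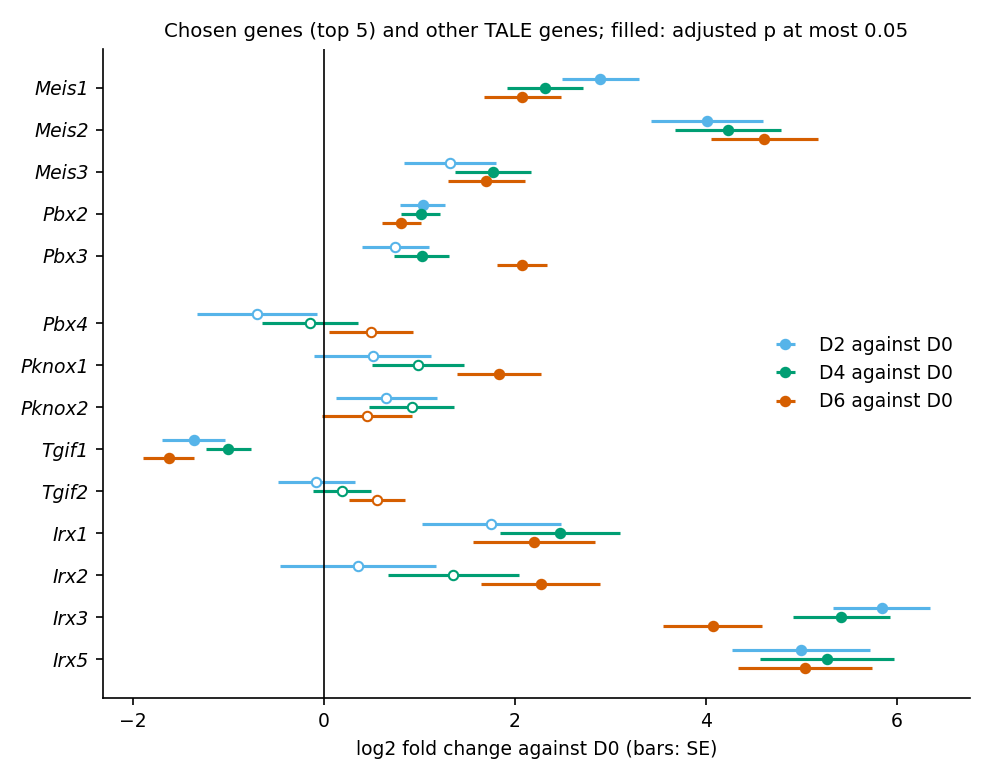
Log2 fold change against D0 (horizontal axis) with SE for the 5 genes (top) and 9 other TALE genes (bottom) at D2, D4 and D6, filled where the adjusted p was at most 0.05. With reads of any mapping quality, as plotted, Meis2, Irx3 and Irx5 show the largest values, and Tgif1 is the only gene with called values below 0.

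Hox genes, whose proteins partner with Meis and Pbx, were nearly unread at D0, with 6 reads in all over 39 genes and 3 libraries. Of the 21 Hox genes tested, 17 had no read at D0. All 11 tested genes of paralog groups 1 to 4 were higher at D2, D4 and D6 than at D0. At D6, Hoxb2 was at least 413-fold and Hoxb3 at least 173-fold higher, computed against 3 reads over the D0 libraries. All 9 tested genes of groups 5 to 8 were higher at D4 and D6 and 7 of them at D2, with Hoxb8 at least 391-fold and Hoxb5 at least 228-fold higher at D6. The 1 tested gene of groups 9 to 13, Hoxb9, had no read at D0, and its reads then numbered 7, 193 and 730 by day. These bounds hold for reads of any mapping quality, and with a minimum of 10 the fitted log2 changes at D6 were 7.31 rather than 8.82 for Hoxb5 and 6.53 rather than 9.26 for Hoxb9, both still called. Between D4 and D6, 4 of 11, 7 of 9 and 1 of 1 tested genes of these groups were higher, where 4.13% of all genes were. Of the 5 members only Pbx3 was called in that comparison, and a link between these courses was not tested.

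Of 9 listed retinoic acid response genes 8 were tested, and 7 were higher at each later day than at D0. Over all genes, 4.69%, 12.9% and 19% were called higher at D2, D4 and D6. Crabp2 and Crabp1, which encode retinoic acid binding proteins, were highest at D2, at 2209 ± 244 and 1496 ± 115 CPM (SD, n = 3). By D6 they were at 203 ± 10.3 and 436 ± 66.9.

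The genes whose log2 levels were most like each member over the 12 libraries are given as a description, among 4984 genes with at least 120 reads. The libraries form 4 days, so that such a correlation mostly follows the days. For Meis1 they were Plxna2 and Selenoh (Pearson r = 0.957 and 0.949), and for Meis2 Commd3, Apba2 and Fgfbp3 (0.980, 0.968 and 0.958). For Meis3 they were Chrnb4, Usp3 and Rhbdl3 (0.935, 0.935 and 0.933), for Pbx2 Tpm4, Mtln and Mxd3 (0.929, 0.918 and 0.9), and for Pbx3 2700081O15Rik, Wdr6 and Ist1 (0.955, 0.940 and 0.939).

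Reads of the 5 genes fell on 21 annotated transcripts, of which 11 had at least 30 reads. In the fit per transcript (limma-voom, 12356 transcripts, 15% called higher and 29.6% in either direction at D6 against D0), 9 of the 11 were higher and none was lower, and 4 were called with a mapping quality of at least 10. Meis2 reads lay on 4 such protein-coding transcripts, ENSMUST00000110908.8 (94 reads), ENSMUST00000110907.7 (92), ENSMUST00000028639.12 (58) and ENSMUST00000102538.10 (52). Their log2 changes were 4.36 ± 0.65, 4.17 ± 0.68, 3.16 ± 0.80 and 3.25 ± 0.73 (SE), and that of ENSMUST00000028639.12 was 2.55 without D6 replicate 2. Both tested Meis3 transcripts were higher, ENSMUST00000002495.17 by 1.70 ± 0.48 and ENSMUST00000176506.7 by 2.47 ± 0.79, the latter not without D0 replicate 3 (adjusted p = 0.09). Pbx3 reads lay on 1 transcript, ENSMUST00000113132.8. The leading Meis1 transcript ENSMUST00000068264.13 (80 reads, 2.08 ± 0.59, or 2.72 with a mapping quality of at least 10) and the leading Pbx2 transcript ENSMUST00000038149.12 (471 reads, 0.84 ± 0.22) were higher, the latter not without D0 replicate 2 (adjusted p = 0.052). The values were 1.52 ± 0.85 (adjusted p = 0.18) for Meis1 ENSMUST00000118661.7 and 0.67 ± 0.58 (adjusted p = 0.41) for Pbx2 ENSMUST00000173328.7. The Meis1 value moved with single libraries, to 2.42 (adjusted p = 0.011) without D6 replicate 1, 2.47 (0.092) without D0 replicate 3 and 0.90 (0.45) without D0 replicate 1.

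These assignments have a limit that differs between the genes. Only 22.9% of Meis1, 24.7% of Meis2 and 38.4% of Meis3 reads had a mapping quality of at least 10, against 75.2% for Pbx2 and 99.3% for Pbx3, and the median read covered 1215 bases of Meis1 and 1446 of Meis2. The leading transcript held 41.1 ± 16.3% of Meis1 reads at D2 and 38.9 ± 5.05% at D6 (SD, n = 3, exact permutation p = 0.90), and the difference of -2.23 percentage points was 15 with a mapping quality of at least 10. For Meis2 it held 31.8 ± 4.93% and 35.4 ± 6.37% (exact permutation p = 0.70). For Pbx2 it held 81.0 ± 0.902% and 90.4 ± 6.91%, without overlap (exact permutation p = 0.10, 0.30 adjusted over 3 genes).

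Meis1 and Meis2 share an alternative exon of 95 bases near the end of the coding region, whose inclusion changes the C-terminal end of the protein. The 56 coding bases are shown because the exons of both genes can be set side by side. They matched at 53 of 56 bases, and capitals mark the bases that differ.

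Meis2, minus strand, chr2:115866849-115866904: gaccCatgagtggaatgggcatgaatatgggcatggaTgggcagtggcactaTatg
Meis1, minus strand, chr11:18884027-18884082: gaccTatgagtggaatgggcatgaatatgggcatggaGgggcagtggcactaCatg

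The exons, too, were chosen after the data were seen. Only reads that began at least 20 bases before the exon and ran past it could show it, and transcript assignment decided which form they were counted under. In Meis1 the exon was present in 5 of 5 such reads at D0, 22 of 22 at D2, 32 of 34 at D4 (94.1%, Wilson 95% interval 80.9 to 98.4%) and 19 of 20 at D6 (95%, 76.4 to 99.1%). In Meis2 both forms were read, with the exon in 2 of 5 reads at D0, 12 of 17 at D2 (70.6%, 46.9 to 86.7%), 36 of 57 at D4 (63.2%, 50.2 to 74.5%) and 53 of 71 at D6 (74.6%, 63.4 to 83.3%). The intervals of the days overlapped, and they cover counting error only. Per library, the Meis2 share was 50%, 85.7% and 66.7% at D2 and 80%, 64.3% and 82.6% at D6. A second choice in Meis2 adds or leaves out 21 coding bases, shown because both forms were read.

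Meis2, minus strand, chr2:115867359-115867379: GTTTTCTTCTTGATCCTTCAG

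These 21 bases were present in 7 of 14 informative reads at D2, 27 of 56 at D4 (48.2%, Wilson 95% interval 35.7 to 61.0%) and 36 of 64 at D6 (56.2%, 44.1 to 67.7%). Per library, they were present in 3 of 3, 3 of 6 and 1 of 5 reads at D2 and in 7 of 17, 16 of 24 and 13 of 23 at D6. Differences between days were not tested for either choice.

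Pbx2 was the only one of the 5 genes with more than 1 large group of 3′ ends. The last group, at the end of the annotated gene, held 205 of 533 reads (38.5%), and the other 3 groups were centred 722, 843 and 977 bases before it. The group at the printed earlier signal held 128 reads. The groups at 843 and 977 bases held 105 and 29 reads and had neither hexamer in the window searched. The median tail was 107 nt at the last group and 105, 98.3 and 91.9 nt at the others. At the minor end of Meis2 it was 149.9 nt over 19 reads, against 103.7 nt over the 281 reads of the main end and these values were not tested.

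The share of Pbx2 reads at the last end was 51.2%, 60% and 40.5% in the D0 libraries and 33.3%, 30.6% and 18.5% at D2. It was 25.7%, 35.5% and 41.9% at D4 and 51.1%, 32.3% and 38.6% at D6. D2 was below D0 by 23.1 percentage points, 27.5 ± 7.89% against 50.5 ± 9.78% (SD, n = 3), and the libraries did not overlap (exact permutation p = 0.10, 0.20 adjusted over 6 shares tested). D6 overlapped both D0 and D2 (exact permutation p = 0.20 for each). These shares were also chosen after the data were seen.

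**Figure D4:**
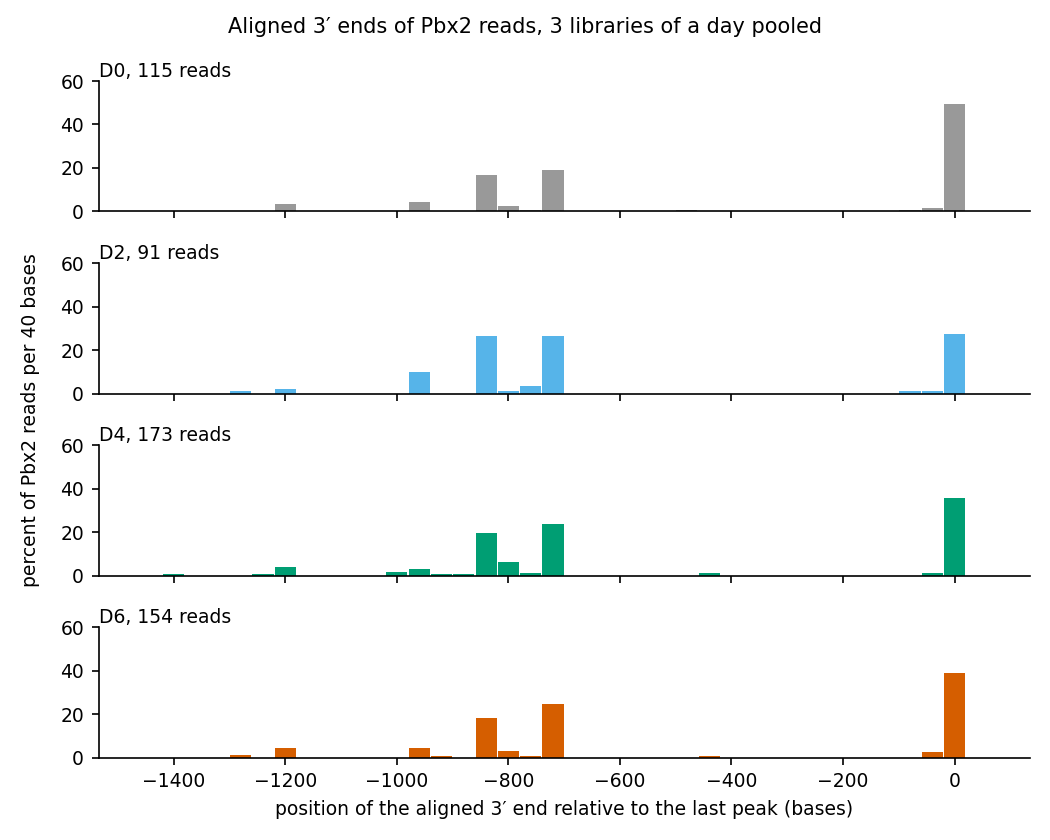
Aligned 3′ ends of Pbx2 reads as percent of the day's reads per 40 bases (vertical axes), against their distance from the last group of ends (horizontal axis), with 115, 91, 173 and 154 reads at D0, D2, D4 and D6. Ends gather at the last group and around 722, 843 and 977 bases before it, and the last group is lower at D2 than at D0.

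Poly(A) tail length is reported as the length per read in nucleotides. Meis1 had long tails, with a pooled median of 150 nt over 192 reads, and 63 of 4985 genes with at least 120 reads had a longer median. The pooled Meis3 median was 89.0 nt over 138 reads, with 4742 of 4985 genes longer, but this came from D2 and D4, and at D0 and D6 the Meis3 median was close to or above that of all reads. The medians were 105 nt for Meis2, 104 nt for Pbx2 and 117 nt for Pbx3, against a median of 109 nt over the medians of those genes. Tails under 30 nt made up between 1.04% (Meis1) and 7.24% (Meis2) of reads.

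By day, the pooled Meis1 median was 137, 143, 139 and 171 nt at D0, D2, D4 and D6, and that of Meis2 was 85.5, 104, 98.4 and 113 nt. Meis3 was at 99.5, 82.8, 73.3 and 113 nt, Pbx2 at 105, 110, 98.4 and 104 nt, and Pbx3 at 113, 97.1, 109 and 125 nt. Over all kept reads the medians were 103, 97.3, 96.9 and 102 nt.

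The tests of tails used the median of each library, for genes with at least 5 reads in each library of both days. Pbx2 and Pbx3 could be compared between D0 and D6 and did not change past the threshold, at -4.67 ± 8.30 nt and 11.1 ± 19.2 nt (SE, adjusted p = 0.87 and 0.86, limma). Between D2 and D6, the library medians of Meis1 were 142, 128 and 158 nt at D2 and 160, 163 and 181 nt at D6. The Meis1 difference of 25.6 ± 10.7 nt (SE) had an unadjusted p of 0.050 and an adjusted p of 0.54 (limma). Meis2 medians were 84.0, 104 and 109 nt at D2 and 124, 114 and 111 nt at D6, a difference of 17.4 ± 9.05 nt (adjusted p = 0.60, limma). Pbx2 differed by -11.8 ± 7.32 nt and Pbx3 by 25.3 ± 16.8 nt (adjusted p = 0.65 for both). None of these members was called, in comparisons where 0.0182% (D6 against D0, 597 of 5491 genes at an unadjusted p of at most 0.05) and 0.0299% (D6 against D2, 308 of 3344 genes) of all genes were called in either direction, with median changes of 5.52 and 5.93 nt.

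The share of tails of 30 to 90 nt was also compared. In Meis1 it was 23.1%, 36.4% and 20% in the D2 libraries and 11.1%, 7.69% and 8.33% at D6. This was lower by 17.4 ± 5.77 percentage points (SE, unadjusted p = 0.019, adjusted p = 0.69, limma). In Pbx3 the difference was -16.2 ± 6.54 percentage points (adjusted p = 0.70), with 28.6%, 41.7% and 50% at D2 and 20%, 26.2% and 25.5% at D6. The values were -8.28 ± 8.64 for Meis2 and 7.35 ± 6.28 for Pbx2. Against D0, the values were -1.32 ± 5.99 for Pbx2 and -7.11 ± 8.70 for Pbx3. No gene was called for this share in either comparison (limma), where 531 of 5491 and 233 of 3344 genes had an unadjusted p of at most 0.05.

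**Figure D5:**
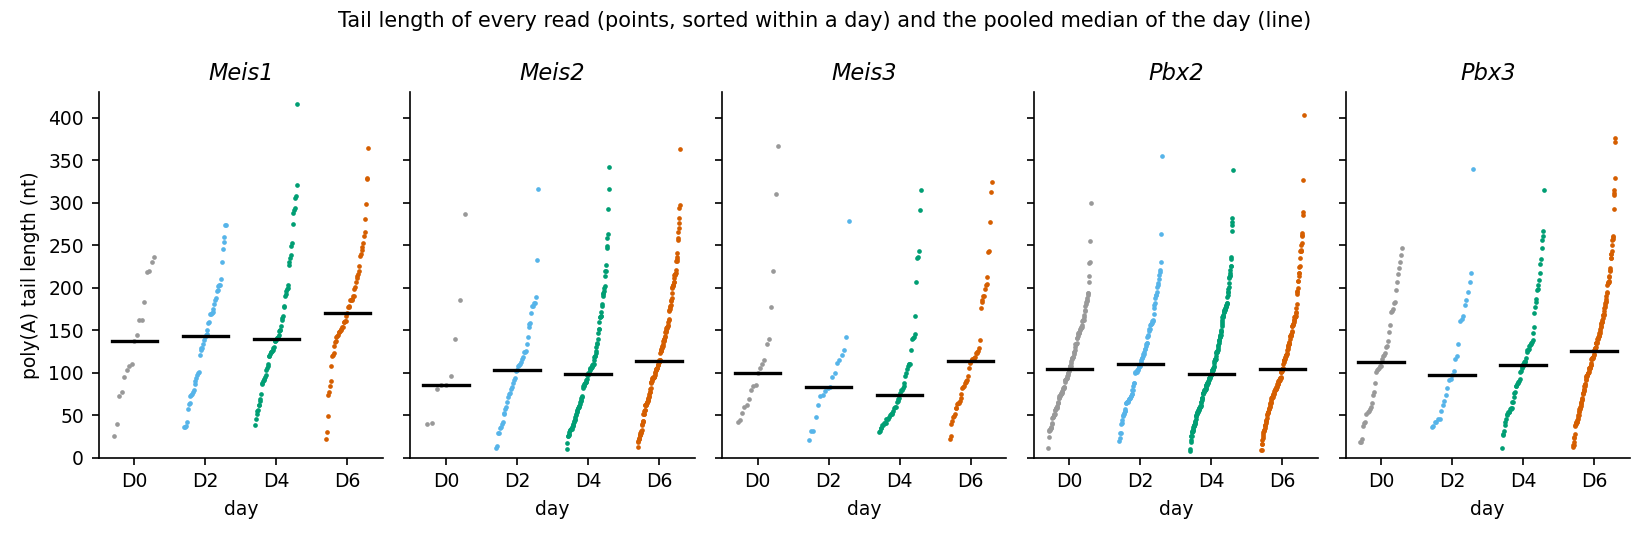
Poly(A) tail length in nt (vertical axis) of each read of the 5 genes by day (points, sorted within a day), with the pooled median (line). The Meis1 line lies above the lines of the other genes at every day, and the Meis1 median is highest at D6 with 171 nt.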

How the data were processed

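P19 cells at D0, D2, D4 and D6 gave 3 libraries each. According to their methods, the authors base-called the signal (Guppy), mapped it to mouse transcripts of mm10 and GENCODE vM17 (Minimap2 2.20), estimated tails (Nanopolish) and demultiplexed barcodes (Deeplexicon). Their deposited table has 1 line per alignment, with tail length in nucleotides, mapping quality as a score and barcode confidence as a fraction, none normalized. A second deposited table holds the authors' own log2 fold changes and p-values and was not used. Of 6306434 lines, 69 were malformed and 289260 had no assigned barcode.

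Reads of class mRNA with the tail tag PASS were tallied per gene, transcript and library, without mitochondrial genes and pseudogenes. This gave 120326 to 613756 reads per library, and counting error limits genes with few reads. As these counts were tallied here from the reads, the test was limma-voom (R 4.3.3, limma 3.58.1), with all 12 libraries modelled by day, on features with at least 30 reads, libraries scaled by TMM (trimming 30% of ratios and 5% of levels) and 0.5 reads added before log2. Library medians and shares of tails were fitted with limma for 2 days at a time. Shares of reads used two-sided exact permutation tests (scipy 1.17.1), where 3 against 3 libraries cannot go below p = 0.10. Scripts were tested on simulated data.

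Replicates are described as biological, and the p-values measure the spread between these libraries. Alternatives were other scalings, filters, tags, mapping quality and barcode confidence minimums, limma-trend, the block and leaving out each library or the D6 runs that name no day. The members and gene lists were chosen with earlier results of these data known. Named genes were all members and their transcripts with at least 30 reads, every tested TALE gene, the Hox (at most 2 per paralog group) and retinoic acid (at most 3) genes with most reads, and the 3 genes most correlated with each member. Of the member transcripts, 21 of 21 had the same coordinates in GENCODE vM21. Some genes and a sequence that this rule covers are not reported here.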

Additional observations from a re-analysis of the deposited data

How the results depend on the processing

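Depth limited the members, which had 3 to 49 reads in the D2 libraries, and 0 for Meis2 in 1 library of D0. Against D0, the number of members called was 2 to 4 at D2 (3 as reported) and 4 to 5 at D4 and at D6 (5 as reported) under the 24 alternatives, and no called member reversed. Meis3 at D4 was not called with a mapping quality of at least 10 (1.52, adjusted p = 0.055). D6 against D2, added after seeing the data, had 2 members called (17.5% of all genes were), and 1 when scaled to the library total, without a filter, with barcode confidence of at least 0.9, with any tail tag, with limma-trend, without the D6 runs that name no day and with the replicate block, and 1 to 2 when each library was left out. The member lost was Meis1, and the cause was not tested. Of 11 member transcripts 9 were called at D6 against D0, but 4 with a mapping quality of at least 10, where 7036 rather than 12356 transcripts were tested. With that minimum, the D6 minus D2 difference of the leading Meis1 transcript's share was 15 percentage points, not -2.23, and that of the Meis2 share of Meis1 and Meis2 reads was 49.2, not 24.4. Same-numbered libraries deviated from their day's mean with correlations of -0.11 to 0.11 over 18 pairs, 1 of them over 0.1, and different-numbered ones with -0.13 to 0.13, so the numbers did not pair the libraries. With the replicate block, Meis1 from D2 to D6 was -0.75 (adjusted p = 0.12), 5 members stayed called at D6 against D0, and 9 transcripts. Over all genes, D2 against D0 gave 1010 calls, 1615 without a filter, 570 with a mapping quality of at least 10 and 654 without D2 replicate 2. With that mapping quality, D6 against D0 gave 2179 calls in place of 3510, D6 against D4 413 in place of 788, D6 against D2 919 in place of 1633, and the transcripts 2277 in place of 3653. D4 against D2 gave 289 calls, 455 with limma-trend and 165 without D2 replicate 2. D6 against D4 gave 431 with limma-trend, 513 without the runs that name no day, and 437, 493 and 518 without D4 replicate 2, D6 replicate 2 or D6 replicate 3. For the median tail, 1 gene was called in each comparison, and 0 to 3 under the alternatives. Scaling to the library total raised the share of calls that were higher from 43.3 to 65.5% (D2 against D0), 50.6 to 62.4% (D4 against D0) and 48.7 to 69.6% (D6 against D4) and lowered it from 65.4 to 55.2% (D4 against D2, 55.9% by the median of ratios).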
